A study of Mus musculus with 9 samples.

Results

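The miR-181 family is a group of related microRNAs made from 6 hairpin genes at 3 places in the mouse genome. A hairpin is cut into a 5p and a 3p arm, so the family has guide arms (the 5p arms) and passenger arms (the 3p arms). From the 1915 mature miRNAs counted, 8 arms were taken as members by name: the guides mmu-miR-181a-5p, mmu-miR-181b-5p, mmu-miR-181c-5p and mmu-miR-181d-5p and the passengers mmu-miR-181a-1-3p, mmu-miR-181a-2-3p, mmu-miR-181b-1-3p and mmu-miR-181c-3p. The remaining 2 of the 10 rows of the family, miR-181b-2-3p and miR-181d-3p, are given beside them. The family was chosen by the measured levels of miR-181c-3p, which were lower in the muscle of tumor-bearing mice than in control muscle. The difference of that arm between the groups, and every ratio that holds it, is therefore given as a description without a test.

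MicroRNAs bind Argonaute proteins and lower the translation and stability of messenger RNAs that pair with bases 2 to 8 of the miRNA, the seed. Usually one arm of a hairpin is retained as the guide and the other is degraded as the passenger. The miR-181 guides are best known for setting the signalling threshold of the T-cell receptor, and in muscle miR-181a has been linked to myoblast differentiation and to mitochondrial turnover.

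Small RNAs were sequenced from the tibialis anterior (TA), a fast muscle of the lower leg, of 4 control mice (C1 to C4) and of 5 mice (L1, L2, L3, L5 and L6) that carried tumors of Lewis Lung Carcinoma (LLC) cells. The LLC line comes from a carcinoma of the mouse lung. The LLC mice received LLC cells under the skin of each flank 22 days before collection, the control mice received PBS in the same way (0 days of tumor development), and assignment was random. All were C57BL mice without any engineered allele: the sample labels give C57BL/6J at 10 weeks of age at injection, whereas the study's design gives male C57BL/10 mice of 8 weeks. The LLC group consists of mice still alive at 22 days, and its sixth library was removed by the authors at quality control and was not analysed here.

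The sequences show which arms can share targets and how closely the arms resemble each other. The mature sequences of RefSeq (annotation of GRCm38) are printed 5′ to 3′ with the seed in capitals. The 4 guide arms were:
miR-181a-5p: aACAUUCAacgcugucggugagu
miR-181b-5p: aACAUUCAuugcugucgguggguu
miR-181c-5p: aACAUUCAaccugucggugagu
miR-181d-5p: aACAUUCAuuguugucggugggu
The passenger arms, the last 2 of which were not members, were:
miR-181a-1-3p: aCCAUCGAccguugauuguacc
miR-181c-3p: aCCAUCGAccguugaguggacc
miR-181a-2-3p: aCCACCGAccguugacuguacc
miR-181b-1-3p: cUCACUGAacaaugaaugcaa
miR-181b-2-3p: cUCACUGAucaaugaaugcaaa
miR-181d-3p: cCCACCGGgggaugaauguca

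All 4 guide arms carried the seed ACAUUCA, and no other of the 1623 miRNAs of the tables with a RefSeq sequence did. Outside the seed they formed 2 pairs. miR-181a-5p and miR-181c-5p shared their first 10 bases and differed by a single deleted base. miR-181b-5p and miR-181d-5p differed by the substitution C12U (positions counted from the 5′ end, the base of the first-named arm first), and miR-181d-5p was 1 base shorter. Against miR-181a-5p, miR-181b-5p carried A9U, C10U and A21G and was 1 base longer.

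Among the passenger arms, miR-181c-3p had the seed CCAUCGA in common with miR-181a-1-3p and with no other matched miRNA. These 2 arms were identical over their first 15 bases and differed by U16G and U19G. The passenger arm from the other miR-181a hairpin, miR-181a-2-3p, differed from miR-181a-1-3p by U5C, which lies within the seed, and by U16C. The seed UCACUGA occurred in miR-181b-1-3p and miR-181b-2-3p, and miR-181d-3p had a seed of its own.

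The 6 hairpin genes lie in 3 clusters of 2 (GRCm38, GENCODE annotation). Mir181a-1 (chr1:137966455-137966541, plus strand) and Mir181b-1 (chr1:137966639-137966718, plus strand) are 97 bases apart and overlap an exon of the long noncoding RNA A430106G13Rik on the same strand. Mir181a-2 (chr2:38852735-38852810, plus strand) and Mir181b-2 (chr2:38853830-38853918, plus strand) are 1019 bases apart within an intron of Nr6a1, an orphan nuclear receptor gene on the opposite strand. Mir181d (chr8:84178716-84178787, minus strand) and Mir181c (chr8:84178873-84178961, minus strand) are 85 bases apart within an intron of a Nanos3 gene model on the same strand. The mature miR-181a-5p and miR-181b-5p are each identical from 2 hairpins, so their counts cannot be assigned to a locus, whereas the 3p arms and the guides miR-181c-5p and miR-181d-5p each come from 1 hairpin.

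The arrangement of the arms is shown by the Mir181a-1 hairpin, in which both mature arms are in capitals.
Mir181a-1: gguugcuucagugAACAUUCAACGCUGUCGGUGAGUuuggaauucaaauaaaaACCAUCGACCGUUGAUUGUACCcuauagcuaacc

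The libraries held 4992339 to 6548379 counts in controls and 6216566 to 7833161 in LLC mice, and the 10 family rows made up 1.87% (L5) to 3.20% of them. CPM, the count of a miRNA relative to the total of its library, are given after scaling with edgeR's TMM factors, which lay between 0.762 (L5) and 1.15. L5 and L1 stood farthest from the median profile of the 9 libraries (root-mean-square log2 difference of 0.523 and 0.415, against 0.212 to 0.317 in the others). The floor of detection was set at 3 counts per library, or 0.383 to 0.601 CPM without TMM scaling. Of the 8 members, 6 passed the expression minimum of more than 32 counts in at least 1 library, as did 304 miRNAs in all. In a bulk muscle sample, fewer cells of a type and less RNA per cell cannot be told apart.

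The 2 members below the minimum were at or under the floor in every library. miR-181a-2-3p had counts of 2, 0, 0 and 1 in C1 to C4 and of 1, 0, 1, 1 and 0 in L1, L2, L3, L5 and L6. miR-181b-1-3p had 1 count in C2, 2 in L3 and 0 in the other libraries. No difference between the groups was detectable for them at this depth, and no fold change is given.

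The family spanned several orders of magnitude in muscle, and its order was the same in each of the 9 libraries. miR-181a-5p was the most abundant arm and the miRNA with the 11th highest mean CPM of the 304. miR-181b-5p followed at a ratio of miR-181a-5p to miR-181b-5p with a median of 17.5 (13.5 to 19.3 over the libraries). The next steps down were from miR-181b-5p to miR-181c-5p (median ratio 2.10, range 1.63 to 2.59), from miR-181c-5p to miR-181d-5p (12.5, range 10.5 to 17.4), from miR-181d-5p to miR-181a-1-3p (1.89, range 1.55 to 2.82) and from miR-181a-1-3p to miR-181c-3p (2.80, range 2.17 to 3.85). Only the CPM ranges of miR-181d-5p and miR-181a-1-3p overlapped between mice, although miR-181d-5p was the higher of the pair within 9 of 9 libraries. These levels are shares of reads, and ligation and amplification can differ between miRNAs, so the ratios are not molar.

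**Figure D1:**
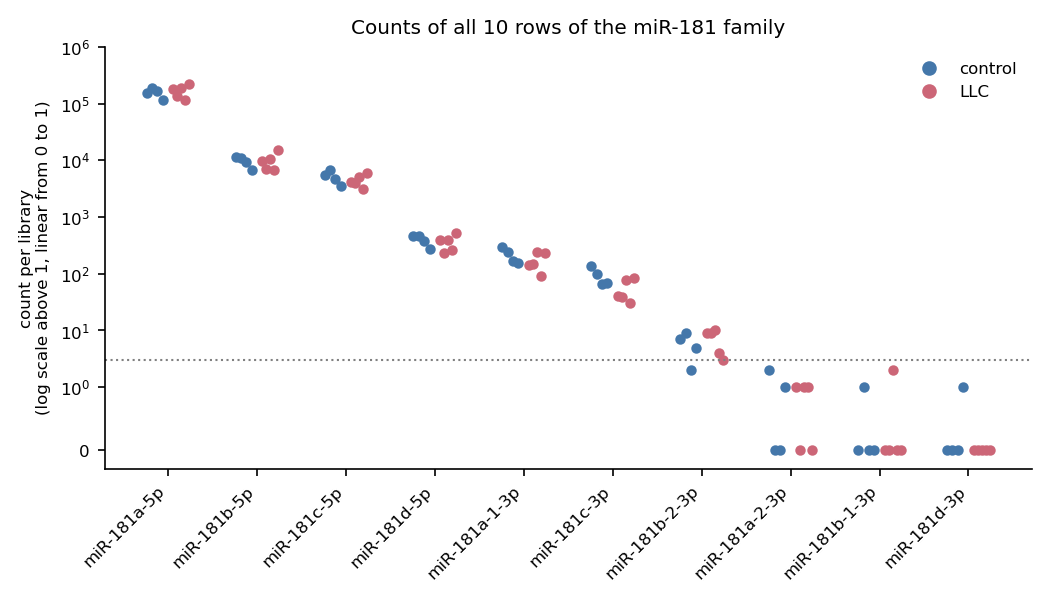
Deposited counts of the 10 miR-181 rows in each of the 9 libraries (vertical axis, log scale above 1 and linear from 0 to 1), control mice in blue and LLC mice in red, one point per library. The dotted line marks 3 counts. The order from miR-181a-5p to miR-181c-3p is the same in both groups, and miR-181a-2-3p, miR-181b-1-3p and miR-181d-3p do not exceed 2 counts in any library.

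Passenger arms were scarce relative to their guides. Over the 9 libraries together, miR-181a-5p had 858 counts for each count of miR-181a-1-3p (exact 95% interval 818 to 900, counting error only, as for all intervals of counts here). miR-181c-5p had 66.2 counts for each count of miR-181c-3p (61.3 to 71.7), pooled over both groups. The totals of these 2 arms were 20356 and 372 counts in controls and 22288 and 272 in LLC mice. The ratio for miR-181a is not that of a single hairpin, since miR-181a-5p also comes from Mir181a-2. For miR-181d the totals were 3358 counts of miR-181d-5p against 1 of miR-181d-3p.

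The passenger arms also differ between hairpins that give an identical guide. For miR-181a, the arm of the chromosome 1 hairpin prevailed, with 1724 counts of miR-181a-1-3p against 6 of miR-181a-2-3p, a ratio of 287 (exact 95% interval 132 to 784). For miR-181b, the arm of the chromosome 2 hairpin prevailed, with 58 counts of miR-181b-2-3p against 3 of miR-181b-1-3p, a ratio of 19.3 (6.30 to 96.5). In each of the 9 libraries the same arm was the higher one. The counts of miR-181b-2-3p were 2 to 9 in controls and 3 to 10 in LLC mice, and overlapped.

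The comparison of LLC with control mice asked whether the lower level of miR-181c-3p was accompanied by changes of its own guide arm, of the neighboring miR-181d and of the paralogs. None of the 304 miRNAs (0%) passed edgeR's quasi-likelihood test at an adjusted p of at most 0.05 with a change of 1.5-fold or more. DESeq2 called 8 miRNAs (2.63%), limma with voom called 0, and edgeR without a filter on low counts called 22 of 932 (2.36%). In none of these fits was miR-181a-5p, miR-181b-5p, miR-181c-5p, miR-181d-5p or miR-181a-1-3p called. At an unadjusted p of at most 0.05, edgeR passed 50 miRNAs (16.4%). Of the 5 members tested, 2 were among these, miR-181c-5p and miR-181a-1-3p, both lower in LLC mice, against a background of 34 of 304 lower (11.2%).

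miR-181a-5p, which supplies most of the guide reads of the family, had 21198, 25271, 29146 and 23275 CPM in C1 to C4. In L1, L2, L3, L5 and L6 it had 30923, 22110, 25402, 22552 and 25766 CPM. The groups overlapped almost completely, with L1 the highest mouse and C1 the lowest. The means were 24723 ± 3385 (SD, n = 4) and 25351 ± 3520 CPM (SD, n = 5). The log2-fold change was 0.04 with a 95% interval of -0.25 to 0.32 (edgeR's quasi-likelihood test, Benjamini-Hochberg adjusted p = 0.892), and its sign turned with library totals in place of TMM factors (-0.10) and without L1 (-0.04).

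miR-181b-5p had 1566, 1455, 1655 and 1328 CPM in the control mice and 1658, 1144, 1426, 1335 and 1753 CPM in the LLC mice. The LLC mice spread on both sides of the controls, L2 being the lowest and L6 the highest. The log2-fold change was -0.04 (95% interval -0.29 to 0.22, edgeR adjusted p = 0.882), from 1501 ± 141 (SD, n = 4) to 1463 ± 246 CPM (SD, n = 5), and its sign turned with RLE factors (0.01) and without L2 (0.04).

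miR-181c-5p, the guide made from the same hairpin as miR-181c-3p, had 737, 891, 827 and 693 CPM in C1 to C4. It had 702, 656, 679, 610 and 677 CPM in the LLC mice. Of the 5 LLC mice, 4 were below every control mouse, and L1 was above C4. The mean was 787 ± 88.9 CPM (SD, n = 4) in controls and 665 ± 34.8 CPM (SD, n = 5) in LLC mice, and the log2-fold change was -0.24 (SE 0.106, 95% interval -0.45 to -0.04). The two-sided exact permutation test over the 126 splits of the 9 mice gave p = 0.0159, where 0.00794 is the smallest p the design allows, whereas over all 304 miRNAs the edgeR adjusted p was 0.284. Leaving out C2 moved the log2-fold change to -0.16, and the permutation p was 0.0571 when L2, L3, L5 or L6 was left out. With a mouse left out the test has fewer splits and coarser p-values. The tested difference in mean log2 CPM was then -0.23, -0.25, -0.21 and -0.25, against -0.24 with all mice.

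miR-181d-5p, the guide of the neighboring hairpin, had 62.2, 60.9, 66.0 and 53.5 CPM in the control mice and 67.0, 37.8, 51.9, 51.5 and 58.9 CPM in the LLC mice. The groups overlapped, with 3 LLC mice below and L1 above all controls. The log2-fold change was -0.18 (SE 0.155, 95% interval -0.49 to 0.12, edgeR adjusted p = 0.521), with means of 60.7 ± 5.23 (SD, n = 4) and 53.4 ± 10.8 CPM (SD, n = 5). Without L2, the lowest mouse, it was -0.08, and without L1, the highest, -0.28.

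The other 2 expressed members were passenger arms. miR-181a-1-3p had 39.7, 32.2, 30.1 and 30.6 CPM in C1 to C4. In L1, L2, L3, L5 and L6 it had 23.8, 24.4, 32.8, 18.4 and 26.6 CPM. All LLC mice but L3 were below the lowest control. The means were 33.1 ± 4.44 (SD, n = 4) and 25.2 ± 5.23 CPM (SD, n = 5), a log2-fold change of -0.39 (SE 0.167, 95% interval -0.72 to -0.06, edgeR adjusted p = 0.284). The two-sided exact permutation test gave p = 0.0556. It gave 0.0286 without L3, 0.114 without L1, L2, L5 or L6, and 0.107 to 0.125 without a control mouse. The tested difference in mean log2 CPM was -0.30 without L5 and -0.39 without L1, against -0.41 with all mice. Here too, the p-values without a mouse come from fewer splits.

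miR-181c-3p, the arm for which the family was chosen, had the lowest level of the expressed members. It was counted 135, 100, 67 and 70 times in C1 to C4, or 18.3, 13.2, 11.9 and 13.8 CPM. In L1, L2, L3, L5 and L6 it was counted 41, 39, 79, 30 and 83 times, or 6.92, 6.35, 10.5, 5.92 and 9.51 CPM. Every LLC mouse was below every control mouse, L3 being the nearest to C3. Among all 304 miRNAs, 13 (4.28%) had LLC levels that were all below the control levels, and this arm is one of them by the choice that was made. The mean was 14.3 ± 2.78 CPM (SD, n = 4) in controls and 7.84 ± 2.04 CPM (SD, n = 5) in LLC mice, a log2-fold change of -0.85 (SE 0.212). Without L5 and without L1, the libraries farthest from the median profile, it was -0.77 and -0.81.

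**Figure D2:**
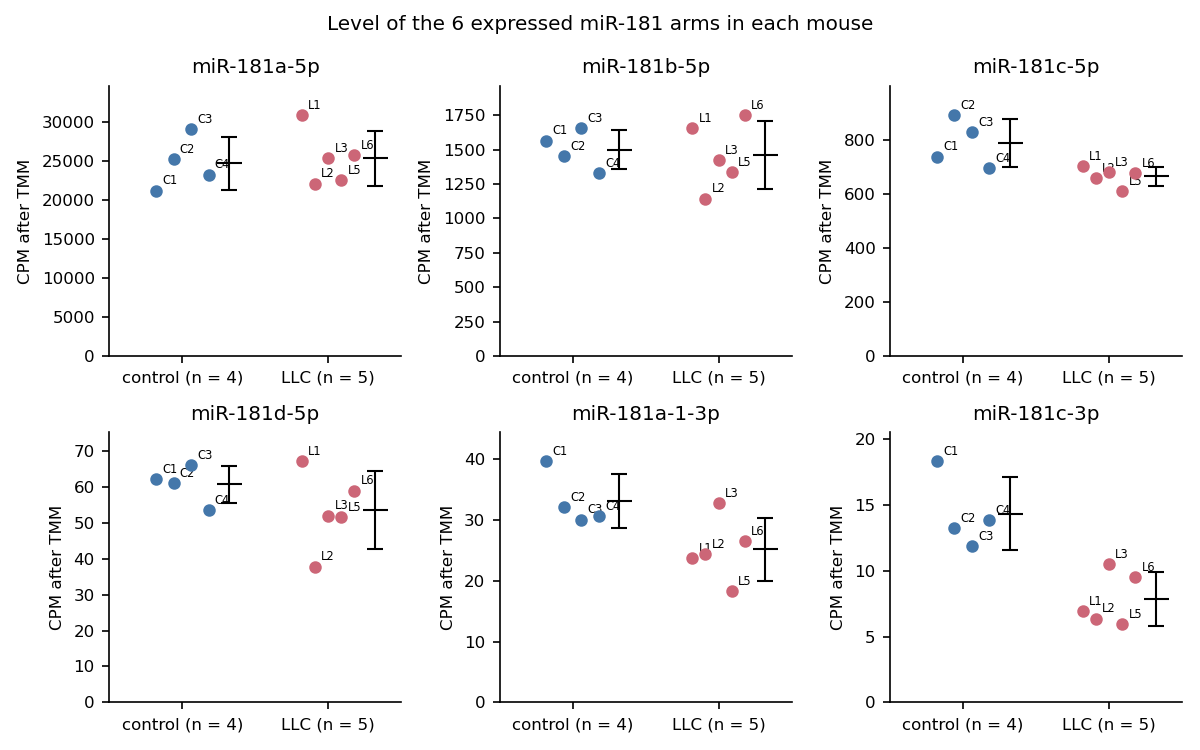
Level of each expressed miR-181 arm in CPM after TMM scaling (vertical axis, linear from 0), one labelled point per mouse, control in blue (n = 4) and LLC in red (n = 5), with the group mean and SD as black bars beside the points. Only for miR-181c-3p, the arm by which the family was chosen, do the groups not overlap. Among all 304 miRNAs, 13 (4.28%) had LLC levels that were all below the control levels. For miR-181c-5p and miR-181a-1-3p, 4 of the 5 LLC mice lie below all controls.

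Of the 6 expressed members, 5 (miR-181c-3p, by the choice of the family, among them) had a negative log2-fold change, against 163 of 304 miRNAs (53.6%). The median over the members was -0.21 with miR-181c-3p and -0.18 over the 5 others, beside -0.02 over all 304. miR-181c-3p was the single member with a fold change of at least 1.5 downwards, a size that 12 of 304 miRNAs (3.95%) reached. With library totals in place of TMM factors the median of all miRNAs moved to -0.17, and with RLE factors to 0.02. Relative to that median, miR-181c-3p stood at -0.83, -0.82 and -0.83 and miR-181c-5p at -0.22 under TMM factors, library totals and RLE factors alike. Relative to it, miR-181a-1-3p stood at -0.37, -0.35 and -0.37, and miR-181a-5p at 0.06, 0.07 and 0.06.

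**Figure D3:**
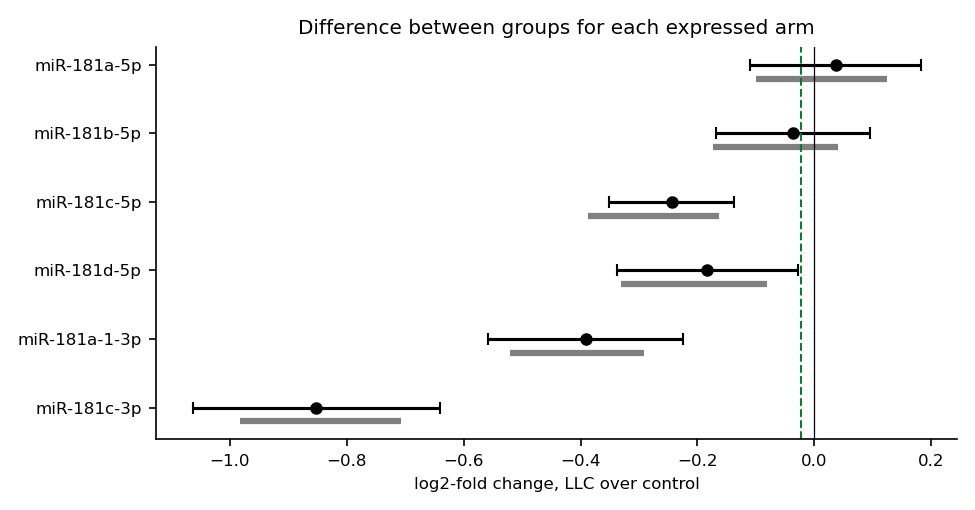
Log2-fold change of LLC over control for the 6 expressed miR-181 arms (horizontal axis), with points and black bars for the edgeR estimate and its SE. Grey bars span the estimates over 18 alternative analyses, the solid line marks 0 and the dashed line the median of all 304 miRNAs (-0.02). The grey bars of miR-181a-5p and miR-181b-5p cross 0, and the others lie below it.

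Because all 4 guide arms share 1 seed, their CPM were added. The sum was 23564 to 31694 CPM in the control mice and 23948 to 33350 CPM in the LLC mice, with means of 27071 ± 3512 (SD, n = 4) and 27532 ± 3746 CPM (SD, n = 5). The groups overlapped, and the log2 ratio of the means was 0.02 (-0.11 to 0.11 over the alternatives). miR-181a-5p held 91.3% of this sum in controls and 92.1% in LLC mice. miR-181c-5p held 2.92% ± 0.297 (SD, n = 4) and 2.44% ± 0.227 (SD, n = 5), and miR-181d-5p held 0.226% ± 0.0258 (SD, n = 4) and 0.193% ± 0.0215 (SD, n = 5).

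Ratios of counts within a library do not depend on the scaling of the library. miR-181c-3p was 2.48, 1.49, 1.43 and 1.99% of miR-181c-5p in C1 to C4. In L1, L2, L3, L5 and L6 it was 0.986, 0.968, 1.55, 0.972 and 1.41%. The groups met at L3, which lay above C2 and C3, and the other 4 LLC mice lay below every control. The log2 difference was -0.64 (range -0.75 to -0.49 on leaving out each mouse), the seventh lowest of 74 hairpins with both arms expressed. The median of these 74 was 0.05, and for 1 of them (1.35%) the groups did not overlap. Counted as a share of both arms, miR-181c-3p ranged from 2.42% in C1 (95% Wilson interval 2.05 to 2.86%) to 0.959% in L2 (0.702 to 1.31%).

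The 2 passenger arms that share a seed were set against each other, in a ratio added after the values had been seen. miR-181c-3p was 46.1, 41.2, 39.4 and 45.2% of miR-181a-1-3p in C1 to C4. In the LLC mice it was 29.1, 26.0, 32, 32.3 and 35.8%. All 5 LLC mice were below all controls, with a log2 difference of -0.47 (-0.52 to -0.41 on leaving out each mouse). Of the 303 ratios of miR-181c-3p to another expressed miRNA, 162 (53.5%) had all LLC mice below all controls, and nothing is read from the separation in this one. Against the neighboring guide miR-181d-5p, miR-181c-3p was 23.7% ± 4.96 (SD, n = 4) in controls and 15% ± 4.06 (SD, n = 5) in LLC mice, and 4 of 5 LLC mice were below all controls.

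The 4 ratios without miR-181c-3p were tested, with p-values adjusted over the 4. miR-181c-5p was 3.48, 3.53, 2.84 and 2.98% of miR-181a-5p in the control mice and 2.27, 2.97, 2.67, 2.70 and 2.63% in the LLC mice. Of the LLC mice, all but L2 were below all controls, and the log2 difference of -0.27 had p = 0.0238 in the two-sided exact permutation test and 0.0952 after adjustment. miR-181a-1-3p was 0.137% ± 0.0355 (SD, n = 4) of miR-181a-5p in controls and 0.100% ± 0.0215 (SD, n = 5) in LLC mice. That log2 difference of -0.45 (exact permutation p = 0.0794, adjusted 0.159) was -0.29 without C1, the control with the highest ratio.

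The ratios between guides of the same cluster had smaller differences. miR-181b-5p was 6.13% ± 0.839 (SD, n = 4) of miR-181a-5p in controls and 5.77% ± 0.640 (SD, n = 5) in LLC mice (log2 difference -0.08, exact permutation p = 0.476, adjusted 0.635). miR-181d-5p was 7.74% ± 0.672 (SD, n = 4) of miR-181c-5p in controls and 8.02% ± 1.44 (SD, n = 5) in LLC mice (log2 difference 0.04, exact permutation p = 0.833, adjusted 0.833). For this last ratio, 1 LLC mouse was below and 3 were above all controls.

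**Figure D4:**
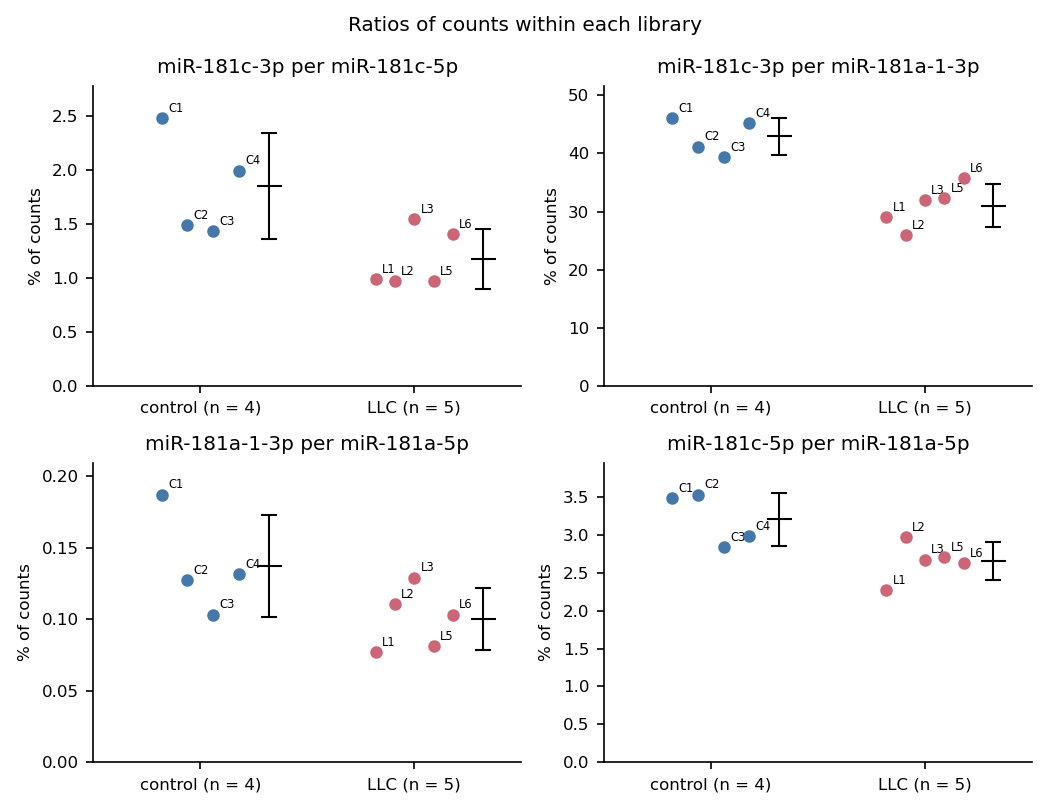
Ratios of counts within each library in percent (vertical axis, linear from 0), one labelled point per mouse, control in blue (n = 4) and LLC in red (n = 5), with mean and SD as black bars beside the points. The other 3 ratios overlap, and miR-181c-3p per miR-181a-1-3p does not (39.4% and above in control, 35.8% and below in LLC), as was so for 53.5% of the ratios of miR-181c-3p, the arm chosen for its separation, to another miRNA.

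Arms that share a hairpin or a cluster were also compared mouse by mouse, after subtraction of the group means from log2 CPM. Over the 9 mice, miR-181a-5p and miR-181b-5p had Pearson's r = 0.65 (exact permutation within groups, p = 0.0774, adjusted over 4 pairs 0.310) and Spearman's rho = 0.58 (p = 0.126, adjusted 0.252). Without C3 and L1, the mice farthest from the median of miR-181a-5p, r was 0.49. For miR-181c-5p and miR-181d-5p, r was 0.40 (exact permutation p = 0.178, adjusted 0.356), rho was 0.58 (p = 0.0958, adjusted 0.252), and r was 0.42 without C2 and C4.

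The pairs of a guide with a passenger arm gave Pearson correlations near 0 at this scaling. Only the miR-181c pair comes from a single hairpin, since miR-181a-5p is also made from Mir181a-2. miR-181c-5p and miR-181c-3p had r = -0.01 (exact permutation p = 0.970, adjusted 0.970) and rho = 0.03 (p = 0.955, adjusted 0.955), and r was 0.05 without C2 and C4. miR-181a-5p and miR-181a-1-3p had r = -0.05 (exact permutation p = 0.900, adjusted 0.970) and rho = -0.27 (p = 0.5125, adjusted 0.683), and r was 0.25 without C3 and L1. With library totals in place of TMM factors all 4 correlations were positive, at 0.83 for miR-181a-5p with miR-181b-5p, 0.68 for miR-181c-5p with miR-181d-5p, 0.73 for the miR-181c arms and 0.64 for the miR-181a arms. The scaling factor of a library enters both arms of a pair.

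Among the other 303 expressed miRNAs, those whose pattern was most like miR-181c-3p over the 9 libraries were miR-409-3p (root-mean-square difference of centred log2 CPM 0.233), miR-3071-3p (0.258) and miR-181a-1-3p (0.258), against a median of 0.544. miR-409-3p was at 13.3 CPM in controls and 9.08 CPM in LLC mice on average, and miR-3071-3p at 25.9 and 16.1 CPM. Those most like miR-181a-5p were let-7i-5p (0.0999), miR-148a-5p (0.119) and miR-30e-3p (0.129), against a median of 0.321. In the order of likeness to miR-181a-5p, miR-181c-3p came 283rd of 303. Each miRNA was centred on its mean over all 9 libraries, not within groups. The fall for which miR-181c-3p was chosen therefore enters its likeness values, which are given as a description only.

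The tissue label was set against miRNAs known from particular cell types. Of 6 muscle fibre miRNAs, 5 were expressed, with miR-133a-3p at 20321 ± 3384 CPM (SD, n = 4) in controls and 18718 ± 1381 CPM (SD, n = 5) in LLC mice. Others of the list had far fewer reads, and shares of reads are not molar levels. miR-1a-3p was at 20.9 ± 2.35 CPM (SD, n = 4) in controls and 17.4 ± 6.44 CPM (SD, n = 5) in LLC mice. miR-499-5p was at 5.26 ± 1.25 CPM (SD, n = 4) and 3.72 ± 1.04 CPM (SD, n = 5). miR-206-3p, which is typical of slow and regenerating fibres, had 0 to 3 counts per library. The sum of the list was 21902 to 30874 CPM in the control and 20862 to 25266 CPM in the LLC mice. All 5 expressed members had a negative log2-fold change, against 163 of 304 miRNAs (53.6%). None of the 5 had an unadjusted edgeR p of at most 0.05.

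miRNAs of other cell types moved beside the family to different degrees, and their part in its values was not tested. Among all 304 miRNAs, edgeR passed 50 (16.4%) at an unadjusted p of at most 0.05, 34 of them (11.2%) lower in LLC mice. All 3 erythroid miRNAs (miR-451a, miR-144-3p and miR-144-5p) were lower in LLC mice with an unadjusted p of at most 0.05, at a median log2-fold change of -0.76. Their sum was 215 to 325 CPM in the control and 92.4 to 220 CPM in the LLC mice. miR-144-3p and miR-144-5p are arms of one hairpin and so are not separate observations. Of the 6 leukocyte miRNAs, 1 was lower and 5 were higher, and 1 lower and 2 higher had an unadjusted p of at most 0.05, with sums of 697 to 807 and 594 to 746 CPM. The lower one was the lymphocyte miRNA miR-150-5p (492 ± 43.8 CPM, SD, n = 4, and 377 ± 23.1 CPM, SD, n = 5). The 2 higher ones were the myeloid miRNA miR-223-3p (20.8 ± 1.89 and 33.9 ± 8.31 CPM) and miR-146a-5p (5.91 ± 1.10 and 9.87 ± 4.11 CPM), the latter named after its values were seen. Both endothelial miRNAs, miR-126a-3p and miR-126a-5p, were lower (log2-fold change -0.31 and -0.09), with sums of 26211 to 33929 and 24162 to 29972 CPM. They too are arms of the same hairpin, and 163 of all 304 miRNAs (53.6%) were lower. Of the 5 miRNAs of fibroblasts and smooth muscle, 3 were lower and 2 higher, with sums of 51315 to 67465 and 53039 to 96732 CPM. None of the markers was called by edgeR, and none was at 0 in every library.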

How the data were processed

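Small RNA libraries (TruSeq Small RNA kit, single-end reads, Illumina HiSeq) were made from the TA muscle of 4 control and 5 LLC mice. The authors aligned the reads to miRBase version 21 using Bowtie, allowed no seed mismatch, retained each best alignment of a read, and deposited the count of each of 1915 mature miRNAs per library as whole numbers without normalization. FastQC, HTSeq and DESeq2 are named in the submitters' processing notes. As every best alignment was kept, a read that fits near-identical arms equally well can be counted for each.

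The 304 miRNAs that exceeded 32 counts in 1 or more libraries were tested by the quasi-likelihood method of edgeR 4.0.16 (R 4.3.3) after TMM scaling, with Benjamini-Hochberg adjustment over all of them. DESeq2 1.42.0 and limma 3.58.1 were alternatives. Exact permutation tests were two-sided, over log2 CPM with a prior count of 2 or log2 ratios with 0.5 added to each count. Levels are mean ± SD over mice, and p-values measure the spread between these mice. Only the main edgeR fit was run on simulated counts, with the same spread between libraries set for every miRNA. DESeq2 and limma were not run on them. No 2 libraries of the same group agreed within sampling noise (lowest chi-square per degree of freedom 124).

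The members and lists were chosen with earlier results of these data known. The miRNAs named were the family, the 3 most like miR-181c-3p and miR-181a-5p, and at most 4 of each marker list. Planned ratios and correlations with miR-181a-2-3p and miR-181b-1-3p were not computed, since these arms had at most 2 counts per library. Replicate numbers 1 to 3 are shared by the groups, but the mice are different animals. Sequences and hairpins were read from RefSeq and GENCODE tables of GRCm38. Python 3.11.15, scipy 1.17.1 and matplotlib 3.10.9 were used.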

Additional observations from a re-analysis of the deposited data

Results flagged for a closer look

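Among 28 groups of values examined for a single mouse far from the rest, 1 stood out: miR-181b-5p was 7.39% of miR-181a-5p in C1, whereas the other control mice lay between 5.68 and 5.76%, so that the gap to the nearest mouse was 0.953 of the range of the group. Chance flags about 1 in 20 such groups. Without C1, the log2 difference of this ratio between LLC and control was 0.01.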

How the results depend on the processing

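Of 283 recomputed values, 253 kept their direction and their side of the threshold or stayed within the spread between mice. The number of miRNAs called was 8 with DESeq2, 22 of 932 without a filter, and 0 to 8 on leaving out each mouse (8 without L3, 1 without L1). No tested family member reached an adjusted p of at most 0.05 under any alternative, the lowest being 0.126 for miR-181a-1-3p and 0.218 for miR-181c-5p. The log2-fold change of miR-181c-3p ranged from -0.98 to -0.71.

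Directions that turned belonged to small differences. The log2-fold change of miR-181a-5p was -0.10 with library totals and -0.044 to 0.12 on leaving out each mouse, and its difference in mean log2 CPM was -0.12 with library totals and -0.039 to 0.12. The log2-fold change of miR-181b-5p was 0.00797 with RLE factors, 0.00798 with DESeq2, 0.00839 without a filter and -0.085 to 0.040 on leaving out each mouse, with a difference in mean log2 CPM of -0.12 to 0.036. On leaving out each mouse, the difference in mean log2 CPM was -0.30 to -0.18 for miR-181c-5p (permutation p 0.0179 to 0.0571). For miR-181a-1-3p it was -0.51 to -0.30 (permutation p 0.0286 to 0.125, against 0.0556 with all mice). The log2 ratio on leaving out each mouse was -0.14 to 0.0087 for miR-181b-5p to miR-181a-5p. For miR-181d-5p to miR-181c-5p it was -0.033 to 0.15. The cause was not tested. Permutation p-values without a mouse come from fewer splits and move in coarser steps.

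Correlations depended on the scaling. With library totals r was 0.83 (permutation p = 0.0201) for miR-181a-5p with miR-181b-5p, 0.73 (p = 0.0392) for the miR-181c arms and 0.64 (p = 0.137) for the miR-181a arms. Without the 2 farthest mice, r was 0.050 for the miR-181c arms and 0.25 for the miR-181a arms. With library totals, 2 of the 3 miRNAs most like miR-181c-3p and 3 of the 3 most like miR-181a-5p remained.

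Same-numbered mice of the 2 groups had correlations of -0.231, -0.0899 and -0.249. Other pairs had a mean of 0.0339 and ranged from -0.332 (C3 with L6) to 0.442 (C1 with L6). So few same-numbered pairs, all inside that range, cannot show whether the number pairs the mice. With the number as a replicate block, edgeR called 0 miRNAs. C4, L5 and L6 have no partner of the same number, so the contrast in this fit rests on C1 to C3 and L1 to L3. With so few mice, the count of 0 does not show that no miRNA differs. The log2-fold change with the replicate block was 0.05 for miR-181a-5p, -0.16 for miR-181b-5p, -0.27 for miR-181c-5p, -0.31 for miR-181d-5p, -0.34 for miR-181a-1-3p and -0.87 for miR-181c-3p. miR-181c-3p had 30 to 135 counts per library, the fewest of the expressed members, and arms with up to 3 counts cannot be compared.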
